A study of Mus musculus with 22 samples.

Results

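Of the 22 single mouse astrocytes sequenced, 3 had over 0.5% of their reads on genes of S phase, the part of the cell cycle in which DNA is copied: J150_3 and J151_5, both S-type, and J165_23, a T-type cell. They were selected on this share, and each is set here against the other 19 cells, whatever their response type. The study imaged calcium with Fluo-4 in cultured cortical astrocytes of newborn C57BL/6 mice during 3 min of exposure to ethanol (EtOH). Per the paper, the highest dose imaged was chosen for the sequencing experiments. The authors sorted each cell by its response, drew it into a micropipette and sequenced its RNA after antisense RNA amplification. S-type cells gave a sustained signal, T-type cells a transient one, M-type cells a mixture, and NR cells did not respond. Among the remaining 19 there were 4 S-type and 5 T-type cells, and 5 of each of the M-type and NR kinds. Every culture had been shaken and treated with cytosine arabinoside, an agent that blocks DNA synthesis and was used against other cells such as microglia, before replating. Serum had been withdrawn before imaging, and each experiment ended with ATP as a reference for the calcium signal. A cell was collected after its response was recorded. The paper describes collection at an early and a later time after exposure, and this time was not used here. The genotype was that of the C57BL/6 strain with no allele named, and neither the animal nor the culture of a cell is named. Each set of cells therefore counted as 1 sample, no test between the sets was made, and every difference given is a description of these libraries.

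The 3 libraries held 16063660, 14249029 and 19279519 reads on genes in the order J150_3, J151_5 and J165_23, against 2937786 to 22131076 in the other 19 (median 17676402). A read was found for 9768, 10768 and 8647 genes, against 6319 to 13070 genes in the others (median 10944). After each cell was thinned at random to 2937786 reads these numbers were 8798, 9536 and 7280 genes, against 5213 to 12087 (median 9905). Size factors, which put the cells on a common scale, were 1.13, 0.923 and 1.54 in the 3 cells. Among the others, 2 T-type libraries stood apart with factors of 0.276 (J162_16) and 0.183 (J163_18), so that a few reads weigh more there, and counts that turn on them are given with and without them. Levels are normalized counts throughout, which are read counts divided by the size factor of the cell.

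Before a cell divides it licenses its replication origins in G1 by loading the MCM helicase, then fires them in S phase, when polymerases follow the helicase behind the sliding clamp Pcna and ribonucleotide reductase (Rrm1 and Rrm2) supplies deoxynucleotides. Much of this machinery is transcribed under E2F factors around the G1/S transition. The genes of mitosis follow in G2, many of them through CHR and CCAAT elements in their promoters. Astrocytes divide in the newborn cortex and in primary culture, and few do so in the resting adult brain.

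Promoters of 5 genes described below are shown because they carry these elements in different sets. They are RefSeq promoter sequences on GRCm38.p6, from 250 bases before to 50 bases after the transcription start, read along the gene. Capitals mark the letters searched on both strands, which were the E2F octamers TTTCCCGC, TTTCGCGC, TTTGCCGC and TTTGGCGC, the CHR letters TTTGAA and TTCGAA, and CCAAT. Octamers of opposite strands overlap in Mcm5 and in Mcm6.
Mcm5, chr8:75109259-75109558, plus strand: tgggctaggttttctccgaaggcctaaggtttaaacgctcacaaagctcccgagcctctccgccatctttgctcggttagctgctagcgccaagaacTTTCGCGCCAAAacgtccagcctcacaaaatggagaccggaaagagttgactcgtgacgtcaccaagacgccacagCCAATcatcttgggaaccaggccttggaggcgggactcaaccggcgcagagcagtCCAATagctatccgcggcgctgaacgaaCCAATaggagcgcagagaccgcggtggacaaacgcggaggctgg
Mcm6, chr1:128359656-128359955, minus strand: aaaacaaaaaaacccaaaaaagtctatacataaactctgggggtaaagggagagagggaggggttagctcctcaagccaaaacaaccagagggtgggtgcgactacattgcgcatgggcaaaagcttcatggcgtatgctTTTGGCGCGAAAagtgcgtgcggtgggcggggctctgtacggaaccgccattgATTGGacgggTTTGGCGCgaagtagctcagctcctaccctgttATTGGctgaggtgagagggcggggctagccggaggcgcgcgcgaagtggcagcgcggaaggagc
Rrm2, chr12:24708004-24708303, plus strand: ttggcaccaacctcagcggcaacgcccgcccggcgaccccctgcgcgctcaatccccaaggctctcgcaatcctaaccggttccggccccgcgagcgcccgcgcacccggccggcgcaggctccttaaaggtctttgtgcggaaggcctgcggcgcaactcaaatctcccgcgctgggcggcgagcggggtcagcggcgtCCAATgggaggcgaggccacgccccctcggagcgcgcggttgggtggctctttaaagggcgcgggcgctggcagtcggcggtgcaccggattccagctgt
Cdk1, chr10:69352863-69353162, minus strand: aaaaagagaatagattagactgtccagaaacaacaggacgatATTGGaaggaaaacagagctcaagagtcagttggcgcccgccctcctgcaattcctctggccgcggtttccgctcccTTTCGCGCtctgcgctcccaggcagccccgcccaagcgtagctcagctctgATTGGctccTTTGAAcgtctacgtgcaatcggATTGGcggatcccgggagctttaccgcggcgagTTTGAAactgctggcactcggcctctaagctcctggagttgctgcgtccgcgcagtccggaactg
Ccnb2, chr9:70421505-70421804, minus strand: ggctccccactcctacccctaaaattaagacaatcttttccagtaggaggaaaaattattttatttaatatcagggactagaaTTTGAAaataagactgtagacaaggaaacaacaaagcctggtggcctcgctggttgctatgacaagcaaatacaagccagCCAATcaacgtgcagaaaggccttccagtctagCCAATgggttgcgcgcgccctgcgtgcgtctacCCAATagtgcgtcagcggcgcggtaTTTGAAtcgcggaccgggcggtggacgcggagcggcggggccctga
The replication helicase genes Mcm5 and Mcm6 held 2 and 3 octamers and no CHR letters in this window. Rrm2 held a single CCAAT and no octamer. Cdk1, the kinase of mitotic entry that is already made in S phase, held 1 octamer, 2 CHR matches and 3 CCAAT. Ccnb2, the mitotic cyclin B2, held 2 CHR matches and 3 CCAAT without an octamer. Among all 27025 genes with a promoter entry, 2.6% held an octamer, 21.7% the CHR letters and 41.1% CCAAT. Of the 54 G2/M genes, 47 were matched, and 36 of these (76.6%) held CHR letters, 36 held CCAAT and 3 (6.38%) held an octamer. For the S phase list 33 of 45 genes were matched, fewer than the 80% required, so a share over that list is void and not given. A match shows that these letters occur in the window and says nothing of binding in these cells.

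The share that chose the cells was 0.587% of reads in J150_3 (exact 95% binomial interval 0.584% to 0.591%), 1.32% in J151_5 (1.31% to 1.32%) and 1.05% in J165_23 (1.04% to 1.05%). In the other 19 it lay between 0.0306% and 0.295%, with a median of 0.0987%. J150_3 was the cell just inside the limit of 0.5%, and J155_9, an S-type cell at 0.295%, was the cell just outside it, followed by J173_25, an M-type cell, at 0.288%. Reads carried no molecular identifiers, so all intervals cover counting error only. A read was found for 37, 45 and 43 of the 45 S phase genes in the order J150_3, J151_5 and J165_23, and for 13 to 45 of them in the others (median 32). The other cells were therefore not without these transcripts, but held them at lower levels.

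Genes of G2 and mitosis, a list of 54 that shares no gene with the S phase list, were also abundant in the 3 cells. They took 2.62% of reads in J150_3, 1.33% in J151_5 and 0.779% in J165_23, against 0.114% to 0.903% in the others (median 0.214%). One T-type cell among the others, J161_9, thus held a higher G2/M share than J165_23. In J161_9 most of this came from Cbx5 (heterochromatin protein HP1α), Tubb4b (a β-tubulin) and Nusap1 (a spindle protein). Without these genes, which were singled out after their values were seen, the share was 0.112% in J161_9, 2.34%, 1.2% and 0.574% in the 3 cells, and 0.0327% to 0.299% over the 19. The order of the 3 cells differed between the lists, since J150_3 was lowest for S phase and highest for G2/M.

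**Figure D1:**
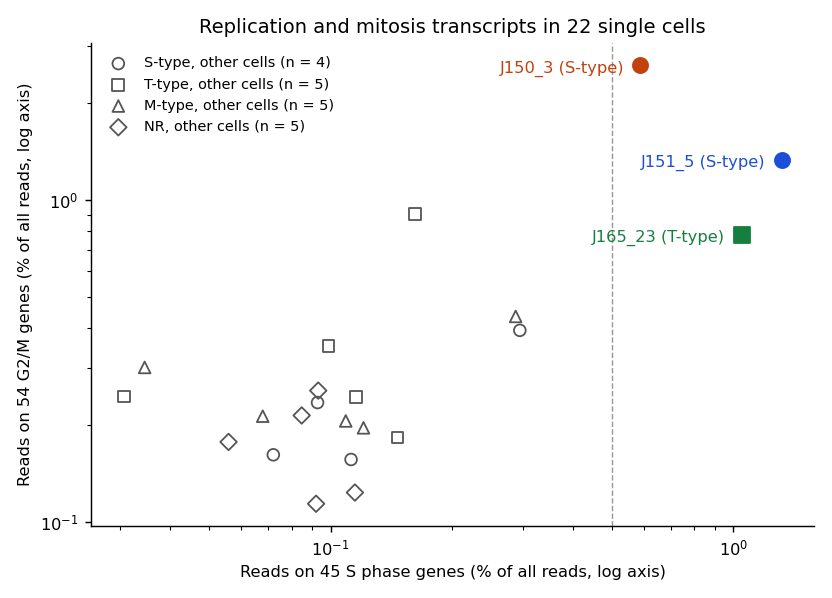
Share of reads on 45 S phase genes (horizontal) against the share on 54 G2/M genes (vertical) in each of 22 cells, both in percent of all reads on log axes. Marker shapes give the response type, filled markers the 3 cells, and the dashed line the limit of 0.5%, to the right of which lie J150_3, J151_5 and J165_23.

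The 5 marker genes come first. Pcna, Rrm2 and Mcm5 belong to the list that chose the cells, so their levels restate the choice, while Top2a and Mki67 belong to the G2/M list. Pcna, the sliding clamp (GRCm38 chromosome 2, 132249162 to 132253314, minus strand), stood at 12753, 45117 and 31593 in J150_3, J151_5 and J165_23, against 142 to 14692 in the others with a median of 2203. One of the 19, J173_25, lay above J150_3. Rrm2, the regulated subunit of ribonucleotide reductase (chromosome 12, 24708241 to 24714146, plus strand), stood at 22278, 15308 and 7659, against 0 to 3660 with a median of 9.34. The 3 cells lay above all 19 for Rrm2, by 5.86 on the log2 scale between the mean levels (7.74 without J173_25).

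Mcm5 (chromosome 8, 75109569 to 75128439, plus strand), a helicase subunit, stood at 344, 1031 and 4126, against 0 to 965 with a median of 0.876. Top2a, the topoisomerase that untangles sister chromatids (chromosome 11, 98992943 to 99024189, minus strand), stood at 27257, 17707 and 728, against 0 to 1949 with a median of 49.3. Mki67, the proliferation antigen Ki-67 that coats mitotic chromosomes (chromosome 7, 135689784 to 135716361, minus strand), stood at 5702, 21408 and 18.8, against 0 to 1965 with a median of 0. All 3 cells lay above the median of the 19 on all 5 markers. For J150_3, 1 other cell lay higher for Pcna and 1 for Mcm5, no other cell lay above J151_5 on any marker, and for J165_23, 1 lay higher for Top2a and 3 for Mki67. In reads, Rrm2 had 51036 in the 3 cells (exact 95% Poisson interval 50594 to 51481) and 7030 in the other 19 (6867 to 7196), and Mki67 had 26203 (25887 to 26522) and 3035 (2928 to 3145).

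Across all genes, 12719 had a read in at least 5 of the 22 cells, the 3 cells included, and were compared. The median log2 ratio of the mean level in the 3 cells to that in the 19 was -0.52 over these genes, and 39.1% of them had a ratio above 0, so a gene at a ratio of 0 was higher than most. For 96 genes (0.755% of those compared) each of the 3 cells lay above each of the 19, and for 15 genes (0.118%) each lay below. The mean was at least 4-fold higher in the 3 cells for 1193 genes (9.38%) and at least 4-fold lower for 3735 (29.4%). Each of the 3 cells lay above the median of the 19 for 1377 genes (10.8%) and below it for 2388 (18.8%). Leaving out J150_3, J151_5 or J165_23 gave 237, 190 or 263 genes with the members above and 58, 92 or 59 below, and leaving out J162_16 gave 34 below. Since the cells were chosen on replication transcripts, these counts give the background to the lists and nothing is read from them about the lists.

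Of the 45 S phase genes, 9 had the 3 cells above all 19, 36 were at least 4-fold higher in the mean and none at least 4-fold lower, 30 lay above the median of the 19 in each of the 3 cells and none below it, and the median log2 ratio was 3.46. For the 54 G2/M genes these counts were 12, 42 higher with 1 lower, and 41 with none below, with a median of 4.81. Within the S-type cells alone, 2 against 4, the medians were 3.12 and 5.25 for S phase and G2/M. Within the T-type cells alone, 1 against 5, they were 4.93 and 1.74, so the G2/M difference of J165_23 from its own type was the smaller of these values. Over all cells the G2/M median was 2.95 without J150_3 and the S phase median 2.77 without J151_5, and with medians over cells in place of means the S phase median was 5.96.

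The MCM helicase, the 6-subunit ring that unwinds DNA, was higher in the mean for all 6 subunits, all of which belong to the S phase list, and 5 were at least 4-fold higher. Mcm6 (chromosome 1, 128331590 to 128359664, minus strand) stood at 6342, 14816 and 11817 in J150_3, J151_5 and J165_23, against 0.626 to 2492 with a median of 288, and was the subunit for which the 3 cells did not overlap the 19. Mcm2 stood at 503, 1085 and 105, against 0 to 283 with a median of 1.75. Mcm3 stood close to even in the 3 cells at 1550, 1437 and 1509, against 0 to 1592 with a median of 4.87.

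Mcm7 stood at 62.1, 761 and 1142, against 0 to 273 with a median of 20.1. Mcm4 stood at 346, 9629 and 2927, against 0 to 26921 with a median of 225, at a log2 ratio of 1.09. J161_9, the T-type cell with the high Cbx5, held that highest Mcm4 level, without which the ratio was 2.76, and 9 of the 19 lay above J150_3. Transcript counts of the subunits were not in a constant proportion between the 3 cells, since Mcm7 stood far higher in J165_23 than in J150_3 while Mcm3 was about equal. Protein of the ring was not measured, and loss of transcripts in a single cell by chance was not tested.

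**Figure D2:**
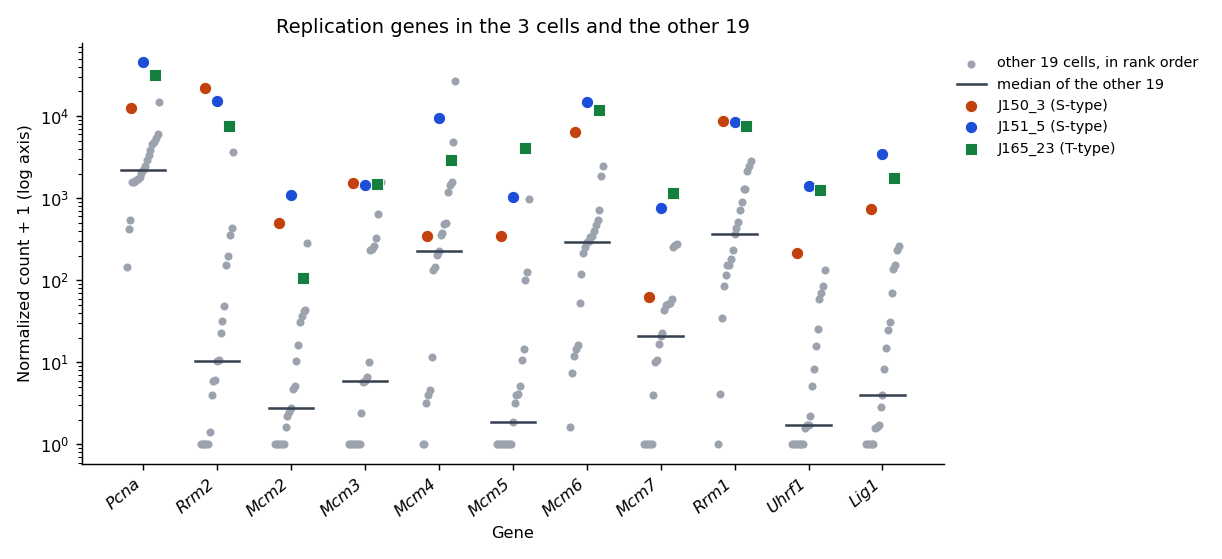
Normalized counts plus 1 (log axis) of 11 replication genes in J150_3, J151_5 and J165_23 (coloured) and in the other 19 cells (grey, in rank order, with a bar at their median). For Rrm2, Mcm6, Rrm1, Uhrf1 and Lig1 the 3 cells lie above every other cell, and for Mcm4 1 other cell lies above all 3.

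Among the 23 origin licensing and firing genes compared (of 25 listed, 4 of them on the S phase list), 5 had the 3 cells above all 19, 12 were at least 4-fold higher and 3 lower, and the median log2 ratio was 2.49. Topbp1, which activates the firing of origins and the checkpoint kinase Atr, stood at 7926, 23691 and 3509, against 0 to 1478 with a median of 108. Gins2, of the GINS complex that joins the helicase at firing, stood at 2453, 1520 and 7644, against 0 to 993, and Gins1 at 1500, 947 and 347, against 0 to 181. Gmnn (geminin), which blocks relicensing in S phase and G2, stood at 3718, 3673 and 2014, against 0 to 875.

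The loading factors showed another order. Cdt1, which loads the MCM ring and is degraded once S phase begins, stood at 1.78 in J150_3, 1480 in J151_5 and 2045 in J165_23, against 0 to 646. Cdc6, its partner, had no read in J150_3 and stood at 156.1 in J151_5 and 110.8 in J165_23, against 0 to 774. Orc2, of the origin recognition complex, stood at 1040, 9143 and 4165, against 0 to 3021, and Orc4 at 1376, 976 and 1984, against 5.45 to 95924. The highest Orc4 level was that of J162_16, a library of low size factor. The log2 ratio of the means was -2.08 with this library and 0.39 without it, while the median of the 19 was 934 and each of the 3 cells lay above it. These 2 loading factors, Cdt1 and Cdc6, lie outside the rule for named genes and were chosen after their values were seen.

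For the 12 replicative polymerase subunits, 10 were at least 4-fold higher and 1 lower, none had the 3 cells above all 19, and the median was 3.24. Pola1, the catalytic polymerase subunit of the polymerase alpha-primase complex, stood at 1574, 713 and 4140, against 0 to 2629 with a median of 7.01. Pold3, an accessory subunit of polymerase delta, stood at 27.5, 5268 and 552, against 0 to 1353. Pole4, a small subunit of polymerase epsilon, stood at 7005, 2140 and 977, against 10.9 to 19014, and did not separate the cells. Summed over the list, the subunits took 679, 1027 and 819 CPM (counts per 1e6 reads of a cell) in the 3 cells, against 30.8 to 423 in the others.

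Of the 15 clamp, clamp loader and lagging strand genes compared (of 16), 9 were at least 4-fold higher, and the median was 2.3. Lig1, which seals Okazaki fragments, was the gene with the 3 cells above all 19, at 730, 3421 and 1758, against 0 to 261. The clamp loader subunits Rfc1 and Rfc2 stood at 17.8, 7628 and 6984 and at 126, 4017 and 2704, against 0 to 4606 and 0 to 1136. Both were thus low in J150_3, below 17 and 10 of the 19, and above all 19 in J151_5 and J165_23.

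Of 14 genes of deoxynucleotide supply, 9 were at least 4-fold higher, 3 had the 3 cells above all 19, and the median was 2.91. Rrm1, the large subunit of ribonucleotide reductase, stood at 8644, 8411 and 7633, against 0 to 2879 with a median of 367. Tk1, the salvage thymidine kinase, stood at 385, 625.4 and 244, against 0 to 184.9, the highest being J173_25. Nme1, a nucleoside diphosphate kinase, did not separate, at 4732, 5915 and 9766, against 1620 to 43025.

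Chromatin assembly and maintenance methylation gave 7 of 16 genes at least 4-fold higher, and the median was 1.53. Uhrf1, which brings Dnmt1 to newly copied DNA, stood at 215, 1426 and 1276, against 0 to 131, with the 3 cells above all 19. Ssrp1, of the histone chaperone FACT, stood at 15260, 31611 and 11256, against 629 to 13369. The histone-binding proteins Rbbp4 and Rbbp7 stood at 4206, 4720 and 3193 and at 21806, 20543 and 14093, against 345 to 21955 and 5427 to 80774, with log2 ratios of 0.77 (1.66 without J161_9) and 0.19.

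Among 32 genes of fork protection and repair, 20 were at least 4-fold higher, 4 had the 3 cells above all 19, and the median was 2.74. Rad51ap1, a cofactor of homologous recombination, stood at 431, 1454 and 1844, against 0 to 132. Rpa2, of the complex that coats single-stranded DNA, stood at 1424, 7108 and 1669, against 0 to 828. Its partner Rpa1 stood at 5642, 16531 and 16495, against 1207 to 20193, with 8 of the 19 above J150_3. Fanca, of the Fanconi crosslink repair complex, was low but apart, at 14.2, 68.3 and 294, against 0 to 11.7. Tipin and Rmi1, of the fork protection and the BLM dissolvasome complexes, stood at 1448, 2166 and 5057 and at 464, 8682 and 3568, against 0 to 1860 and 0 to 1281.

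Upstream of replication, the G1/S control genes were less distinct. Of 24 compared (of 25), 10 were at least 4-fold higher and 2 lower, none had the 3 cells above all 19, and the median was 1.31. The D cyclins Ccnd1 and Ccnd2, which answer to growth signals in G1, stood at 13184, 13024 and 1857 and at 14594, 9054 and 18378, against 1546 to 33811 and 4608 to 61592, within the range of the 19. Ccne2, the cyclin E2 of S phase entry, stood at 10.7, 1671 and 389, against 0 to 1331, and Ccne1 had no read in J150_3, stood at 1778 in J151_5 and at 37.6 in J165_23, against 0 to 192. The cyclins E were chosen after their values were seen.

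Inhibitors of the cycle showed no common direction. Of 9 CDK inhibitors and pocket proteins compared (of 10), 2 were at least 4-fold higher and 3 lower, and the median was -0.03. Cdkn2b (p15), an inhibitor of Cdk4 and Cdk6, stood at 7.99, 0 and 1.3, against 0.927 to 112697 with a median of 481, so the 3 cells lay near the bottom of the range. Its highest level was in J162_16. Rb1, the retinoblastoma pocket protein, stood at 139, 30.3 and 1584, against 217 to 6521 with a median of 1994. Cdkn1a (p21) spanned the range of the others, at 93.2, 532 and 3768, against 10.9 to 9883 with a median of 567.8. Cdkn2d (p19), chosen after its values were seen, went the other way at 6615, 3283 and 728, against 0 to 1124 with a median of 85.1.

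Of 27 mitotic cyclins, kinases and ubiquitin ligase genes, 23 were at least 4-fold higher, 9 had the 3 cells above all 19, and the median of 5.08 was the highest of all lists. In sum they took 8522, 2568 and 2482 CPM, against 19.3 to 627 in the others. Cdk1 (chromosome 10, 69335146 to 69352938, minus strand) stood at 9435, 11321 and 6574, against 0 to 1379 with a median of 193, and was thus within a narrow range in the 3 cells. Melk, a kinase of dividing progenitors, was as even at 3936, 3315 and 4039, against 0 to 270. Aurkb, the Aurora kinase of the chromosomal passenger complex, stood at 3041, 4988 and 549, against 0 to 140.

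Cyclins A2 and B2 and several partners of the ubiquitin ligase were highest in J150_3. Ccnb2 (chromosome 9, 70407692 to 70421547, minus strand) stood at 12298 in J150_3, 245 in J151_5 and 127 in J165_23, against 0 to 55.7. Ccna2, the cyclin of S phase and G2, stood at 12081, 919 and 3799, against 1.75 to 925, and J155_9 held that highest value just above J151_5. Ube2c, the conjugating enzyme of the anaphase-promoting complex, stood at 15374, 2755 and 2995, against 0 to 461. Fbxo5 (Emi1), its inhibitor in S phase and G2, stood at 6737, 3089 and 3463, against 0 to 364. Pbk, a mitotic kinase, stood at 12141, 1587 and 1511, against 0 to 1104.

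**Figure D3:**
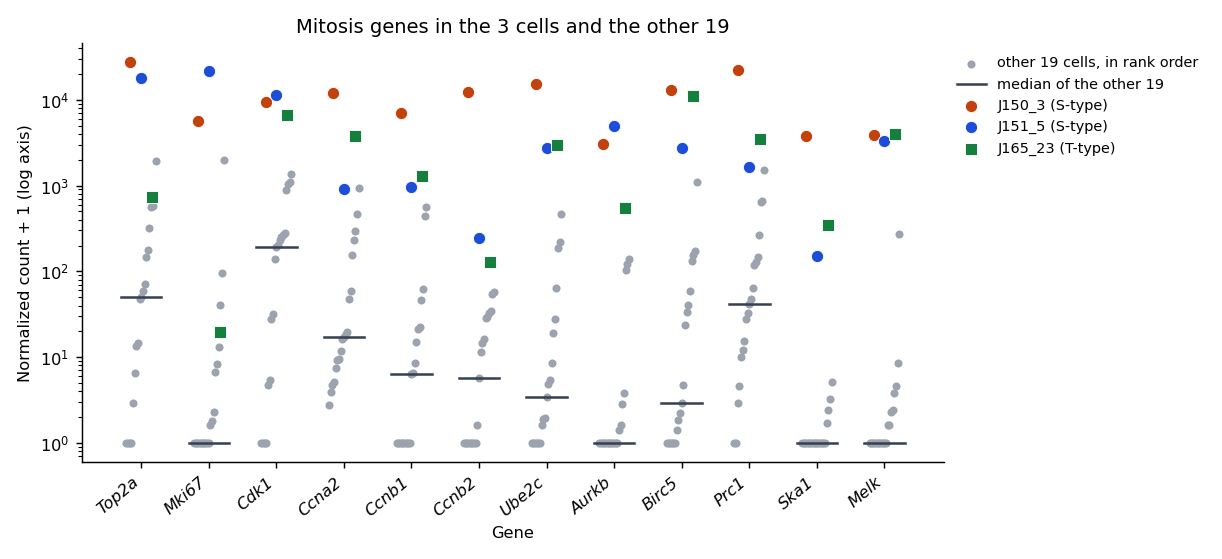
Normalized counts plus 1 (log axis) of 12 mitosis genes in J150_3, J151_5 and J165_23 (coloured) and in the other 19 cells (grey, in rank order, with a bar at their median). J150_3 is the highest of the 22 for Ccnb2 and Ube2c, the 3 cells lie together for Cdk1 and Melk, and J165_23 lies among the other cells for Mki67.

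Kinetochore genes followed. Of 42 genes of the spindle checkpoint, kinetochore and centromere, 37 were at least 4-fold higher and 2 lower, 14 had the 3 cells above all 19, and the median was 4.71. Ska1, of the complex that holds kinetochores on microtubule ends, stood at 3763, 150.7 and 345, against 0 to 4.2, and its log2 ratio of 11.62 rested on 4910 reads in the 3 cells and 12 in the other 19 (12.51 without J173_25). Kntc1, of the checkpoint complex RZZ, was low in J150_3 by comparison, at 170, 1981 and 1926, against 0 to 30.1. Ska1 and Kntc1 each had a read in 4 of the 19, so both passed the filter of 5 cells only through the 3 cells. Both count among the 14, and nothing is read from their place there. Cenpp, of the inner kinetochore, stood at 9708, 3536 and 6900, against 0 to 216, and Birc5 (survivin), of the passenger complex, at 12883, 2737 and 11154, against 0 to 1110.

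Bub3 and Zwint were among the many genes of this list whose 3 cells overlapped the 19. Bub3, which also serves outside the checkpoint, stood at 13320, 1322 and 806, against 169 to 9379. Zwint, a kinetochore scaffold, stood at 146, 369 and 138, against 3.65 to 12700 with a median of 587, so the 3 cells lay below the median of the 19.

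All 30 spindle and cytokinesis genes had a ratio above 0, with 27 at least 4-fold higher, 4 with the 3 cells above all 19, and a median of 3.96. Prc1, which bundles the central spindle, stood at 22078, 1638 and 3499, against 0 to 1501, and Kif2c, a microtubule depolymerase, at 2003, 220 and 279, against 0 to 91. Kif2c, counted among the 4, had a read in 3 of the 19 and so passed the filter only through the 3 cells. Ckap2l, a spindle protein of neural progenitors, stood at 8489, 7366 and 2209, against 0 to 620. Ckap2 and Anln (anillin) stood at 27168, 3484 and 1276 and at 11991, 14072 and 662, against 0 to 1799 and 0 to 4275. Nusap1 stood at 4157, 2117 and 1011, against 0 to 27815, the highest being J161_9.

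Of 25 condensin, cohesin and chromosome structure genes, 18 were at least 4-fold higher, 10 had the 3 cells above all 19, and the median was 3.17. The condensin subunits Ncaph, Ncapd2 and Ncapg2 stood at 3751, 1211 and 1568, at 1011, 1338 and 2310 and at 2114, 3591 and 3659, against at most 224, 180 and 707 in the 19. H2afz, the histone variant H2A.Z, stood at 23733, 13546 and 10675, against 5.45 to 5361. Cohesin subunits, which serve in all phases, were closer to the others, with Rad21 at 10047, 8101 and 5675, against 68.9 to 8409, and Smc3 at 3530, 1856 and 2209, against 21.8 to 36957.

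The clustered histone genes, whose S phase transcripts mostly end in a stem-loop without a poly(A) tail, did not follow. Of 68 listed, 25 passed the filter, 13 had no read in any cell, 2 were at least 4-fold higher and 11 lower, and the median was -0.99. They took 864, 828 and 1194 CPM in the 3 cells, against 151.5 to 2101 in the others (median 861). Hist1h1c, a linker histone, stood at 4409, 4484 and 7733, against 207 to 16122, and Hist1h2bc and Hist2h3c2 at 5429, 3781 and 4901 and at 1945, 1548 and 223, against 20.6 to 14060 and 0 to 2950.

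The 3 cells differed among themselves along the cycle. For the S phase list, the level was highest in J151_5 for 24 of 45 genes, in J165_23 for 14 and in J150_3 for 7. For the G2/M list it was highest in J150_3 for 39 of 54 genes, in J151_5 for 12 and in J165_23 for 3. Relative to the median of the 19, with 1 added to each level, the list median over genes was 2.63 in J150_3, 7.15 in J151_5 and 5.67 in J165_23 for S phase on the log2 scale. For G2/M it was 9.48, 6.98 and 3.63. Over all genes compared the same median was 0 in J150_3 and J151_5 and -0.2 in J165_23.

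The genes without a read followed the same order. In J150_3, 8 S phase genes had none (Ung, Cdca7, Hells, Cdc6, Exo1, Blm, Chaf1b and Brip1), and all 54 G2/M genes had at least 1. In J165_23, 8 G2/M genes had none (Cenpf, Kif20b, Hjurp, Cdc25c, Cdca8, Cenpe, Nek2 and Gas2l3), and 2 S phase genes had none (Wdr76 and Blm). J151_5 had a read for every gene of both lists. Exo1, the exonuclease of mismatch repair, stood at 4760 in J151_5 and 1174 in J165_23, against 0 to 35.7 in the 19, and Cenpf, a kinetochore protein of G2, at 15418 in J150_3 and 2918 in J151_5, against 0 to 3028. These sets were named because of their values.

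Several lists by role followed this order. In J150_3 the list medians were 8.62 for mitotic cyclins and kinases, 9.25 for spindle and cytokinesis, 1.88 for fork protection and 0.93 for G1/S control. In J151_5 they were 6.42, 6.9, 6.37 and 3.12, and in J165_23 5.08, 5.2, 3.14 and 2.03. For dNTP supply J165_23 was highest, at 6.36, against 4.11 in J150_3 and 4.65 in J151_5, and for the MCM helicase J165_23 was lowest, at 5.56, against 5.99 and 6.81. With 3 cells and no labelled phase, this is a description of transcript levels and not a staging of the cells.

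**Figure D4:**
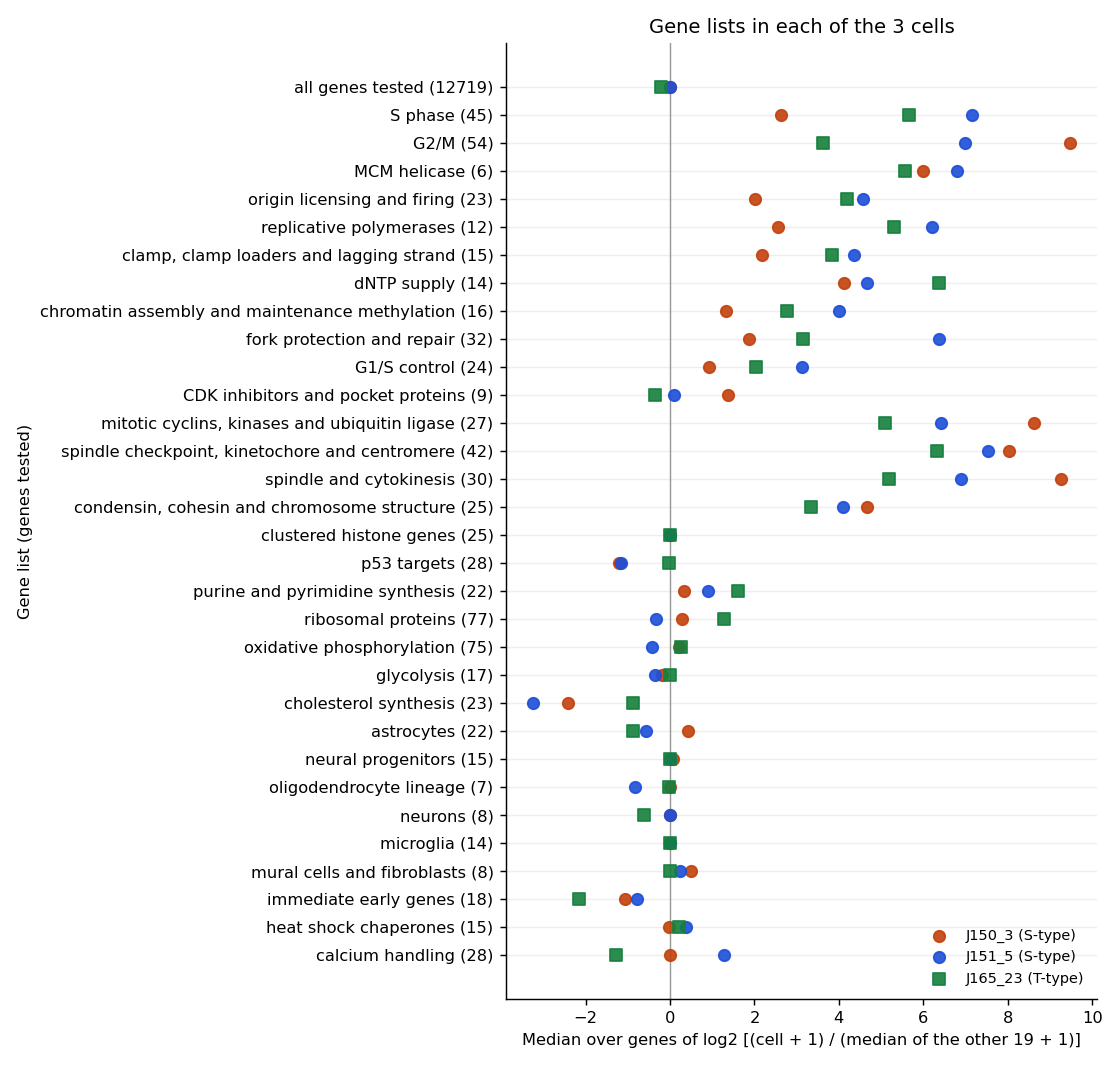
Median over the genes of each list of log2 of the level in a cell plus 1 over the median level of the other 19 plus 1, for J150_3, J151_5 and J165_23, with the genes compared in brackets. The replication and mitosis lists lie to the right of 0 in all 3 cells, with J150_3 farthest right for spindle and G2/M genes. From the clustered histones down, all points lie between -3.24 (cholesterol synthesis in J151_5) and 1.62 (purine and pyrimidine synthesis in J165_23), and endothelium, with 3 genes, is not drawn.

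Among the other 19, the S phase shares nearest to the limit were those of J155_9 (S-type) and J173_25 (M-type). J155_9 held the highest level of the 19 for 13 of the 45 S phase genes and J173_25 for 11, and for the 96 genes with the 3 cells above they held it for 22 and 28. Of 318 genes on any cell cycle list, out of 12719 compared, 53 (16.7%) were among those 96, against 0.755% of all genes compared. These 53 made up 55.2% of the 96, and the remaining 43 genes were on none of those lists. The 53 include 9 genes of the S phase list that chose the cells, so the choice fixed part of this overlap. Without that list 44 of 273 genes (16.1%) were among the 96. All cell cycle lists together held 6.26%, 5.37% and 4.25% of reads in J150_3, J151_5 and J165_23, against 0.94% to 2.51% in the others (median 1.27%), the highest being J161_9. With the S phase list left out these genes still held 56693, 40552 and 32015 CPM in the 3 cells, against 8476 to 23464 CPM (median 12395).

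Several of the 43 genes outside the lists are known from the same processes. 4930427A07Rik, now named Tedc1 and needed for centriole triplets, stood at 155.4, 772 and 1644, against 0 to 102. Lsm11, of the U7 particle that cuts the ends of histone transcripts, stood at 300, 201 and 3210, against 0 to 64.3. Haus4, of the augmin complex that builds the spindle, stood at 4371, 5034 and 2897, against 0 to 1364. Trip13, an ATPase of the spindle checkpoint, stood at 1799, 5869 and 4648, against 0 to 719. C330027C09Rik, now Cip2a, an inhibitor of protein phosphatase 2A, stood at 3035, 7549 and 883, against 0 to 758.

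The others that the rule names were of mixed function. Psmc3ip (Hop2), a cofactor of meiotic recombination, stood at 2027, 392 and 6702, against 0 to 387, and Cntrob (centrobin), a centriole protein, at 2989, 1463 and 578, against 0 to 498. Psmb9, a subunit of the immunoproteasome, stood at 608, 57.4 and 373, against 0 to 53.2. Snx30, a sorting nexin, stood at 2269, 4392 and 720, against 0 to 491, and 2700099C18Rik at 197, 1034 and 708, against 0 to 96.5. For several of these the lowest of the 3 cells lay only just above the highest of the 19, as for Psmc3ip with 392 in J151_5 against 387 in J155_9.

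On lists outside the cell cycle, 2 genes had the 3 cells above all 19, as had 0.755% of all genes compared. They were 1 of 22 purine and pyrimidine synthesis genes and 1 of 28 calcium handling genes, and nothing is read from this number. Umps, the enzyme that completes uridine monophosphate, was even in the 3 cells at 2573, 2798 and 2591, against 0 to 1765 with a median of 148. Stim1, the calcium sensor of the endoplasmic reticulum, stood at 718, 1158 and 1626, against 0 to 686 with a median of 185.1. Its level in J150_3 thus lay only just above the highest of the 19. Of the 28 calcium handling genes compared (of 30), 4 (14.3%) were at least 4-fold higher and 7 (25%) lower, with a median of -0.68. Over all genes compared these values were 9.38%, 29.4% and -0.52, so the list lay near the background. Atp2a2, the pump that refills the endoplasmic reticulum, stood at 1821, 4047 and 586, against 2207 to 27636, Atp2b1, a plasma membrane pump, at 12103, 4311 and 1417, against 12.8 to 12570, and the channel Pkd2 at 1444, 670 and 1531, against 37.5 to 12316.

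Only 15 genes had the 3 cells below all 19. Without J162_16 and J163_18 there were 48, an alternative added after the data were seen. Myo6, the myosin that moves towards the minus end of actin, stood at 108, 3.25 and 57 in the 3 cells, against 930 to 105052 with a median of 3552. Gusb, the lysosomal β-glucuronidase, stood at 23.1, 3.25 and 1.3, against 37.2 to 2300, and Ube2h, a ubiquitin-conjugating enzyme, at 10.7, 31.4 and 0, against 63.1 to 2570. 9930013L23Rik, now Cemip, which degrades hyaluronan, stood at 0, 1.08 and 3.89, against 4.87 to 11176, and Ttc30b, of the transport train of cilia, at 2.66, 2.17 and 2.59, against 5.45 to 1826.

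No read of 3 of these genes was found in the 3 cells. Against the limit that 3 reads over the 3 cells allow, Spty2d1, a histone chaperone, was at least 940-fold lower, Herc4, a ubiquitin ligase, at least 382-fold lower, and Plcd1, a phospholipase C of calcium signalling, at least 233-fold lower, with at least 1 read in each of the 19. Pla2g16 (now Plaat3), a phospholipase, had 2 reads in the 3 cells and 29606 in the 19, a log2 ratio of the pooled reads of -11.02 (95% interval -14.06 to -9.17). Tnip1, an inhibitor of NF-κB signalling, had 1 read and 5093, a ratio of -9.48 (-14.78 to -7.00). Of those 5093 reads, 3009 came from J162_16, and without it the ratio was -8.21 (-13.51 to -5.73). Libraries of single cells lose transcripts in a cell by chance, and with 3 cells that part was not tested.

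**Figure D5:**
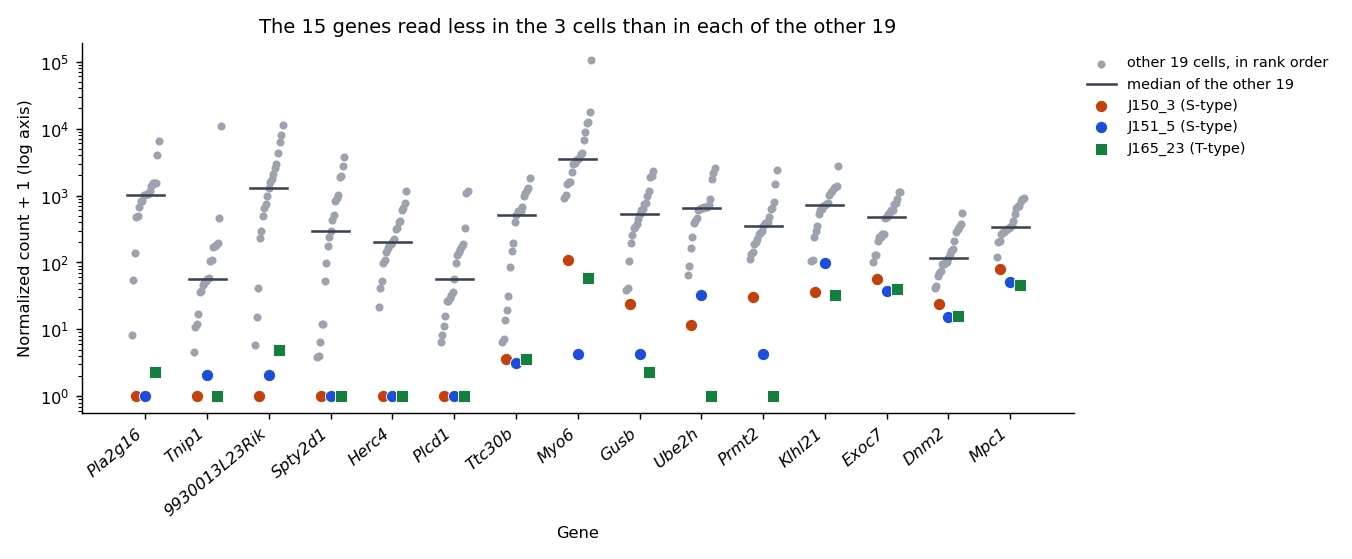
Normalized counts plus 1 (log axis) of the 15 genes for which J150_3, J151_5 and J165_23 (coloured) lie below each of the other 19 cells (grey, in rank order, with a bar at their median). The lowest other cells stand at 930 for Myo6 and at 3.65, 5.45 and 4.87 for Tnip1, Ttc30b and 9930013L23Rik.

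The counts of the remaining lists stand beside a background of 9.38% of all genes at least 4-fold higher, 29.4% at least 4-fold lower and a median log2 ratio of -0.52. Of 28 p53 targets, 2 (7.14%) were at least 4-fold higher and 10 (35.7%) lower, 1 lay above the median of the 19 in each of the 3 cells and 10 below, and the median was -1.26 (-2.06 without J165_23). They took 774 CPM in J150_3, 405 in J151_5 and 2470 in J165_23, against 891 to 3789 in the others, so both S-type cells lay below all 19 and the T-type cell did not. Ccng1 (cyclin G1) stood at 623, 1286 and 12172, against 1817 to 22606, Trp53inp1 at 11.5, 1035 and 3299, against 116 to 18779, and Zmat3 at 1354, 173.4 and 987, against 74.8 to 9560.

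Of 23 genes of cholesterol synthesis none was at least 4-fold higher and 8 (34.8%) were lower, a share near the background of 29.4%. In this list 8 genes lay below the median of the 19 in each of the 3 cells, and the median was -0.91. Summed, they took 1609, 630 and 2164 CPM, against 790 to 7647 (median 3516). Hmgcs1, at the entry of the pathway, stood at 5269, 9.76 and 571, against 636 to 34558. Cyp51 and Sc4mol (now Msmo1), which act in sterol demethylation, stood at 96.8, 2182 and 2608 and at 1351, 43.4 and 5098, against 46.9 to 19952 and 90.9 to 25042.

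Biosynthesis of ribosomes and nucleotides differed between the 3 cells. The 77 ribosomal protein genes compared (of 80) had a median of 0.16 (-0.41 without J165_23 and -0.13 without M-type and NR cells), with 1 at least 4-fold higher, 2 lower and 21 above the median of the 19 in each cell. J165_23 was the highest of the 3 for 67 of the 77, with Rps23 an exception, and the sums were 39619, 25197 and 78263 CPM, against 16860 to 79285. Rpl7 stood at 30640, 23966 and 65560, against 15505 to 64882. Rps23 stood at 40190, 21554 and 20184, against 3609 to 258080, and Rps4x at 40642, 24586 and 45099, against 11906 to 316113. Uniquely aligned reads were counted, so reads that these genes share with paralogs or pseudogenes were left out. Purine and pyrimidine synthesis had a median of 0.73 over 22 genes, with 6 at least 4-fold higher, 1 lower and 1 with the 3 cells above all 19 (Umps), and Paics, Ctps and Adss stood at 884, 2150 and 8683, at 91.4, 3974 and 1279 and at 3247, 388 and 642, against 202 to 5295, 27.4 to 9526 and 270 to 15616.

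Of 75 oxidative phosphorylation genes compared (of 80), none was at least 4-fold higher and 4 were lower, with a median of -0.2. Atp5b and Atp5g3, of the ATP synthase, stood at 43580, 21962 and 53360 and at 64340, 68556 and 60104, against 14202 to 57684 and 20541 to 201364. Atp5a1 stood at 7928, 10210 and 20478, against 9537 to 563648. Glycolysis had a median of -0.71 over 17 genes, with 1 higher and 2 lower, and Pgk1, Pfkp and Ldhb stood at 832, 3478 and 8305, at 2913, 9732 and 4102 and at 7512, 7429 and 21342, against 1158 to 17936, 1599 to 129720 and 1046 to 58639.

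Of 15 heat shock chaperones, none was at least 4-fold higher and 4 were lower, with a median of -0.26, and Hspa8 stood at 16752, 15228 and 16824, against 5353 to 147001. Hsp90aa1 stood at 49173, 46864 and 23300 and Hsp90ab1 at 14010, 16402 and 35347, within the range of the 19 in each cell. Of 18 immediate early genes compared (of 19), which respond within minutes to stimulation, none was at least 4-fold higher, 8 were lower and 7 lay below the median of the 19 in each cell, with a median of -1.76. Egr1 stood at 7922, 1163 and 1.94, against 0.927 to 54087, Klf6 at 567, 1089 and 286, against 211 to 6875, and Ier3 at 49.7, 122 and 2034, against 4.22 to 12746.

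Markers of cell types were then compared. The 22 astrocyte markers compared (of 23) had a median of -0.57, with none at least 4-fold higher and 6 (27.3%) lower, near the background of 29.4%. The median was 0.0022 with medians over cells and -1.31 without J150_3. The markers took 7373, 3883 and 2712 CPM, against 2750 to 16302, so J165_23 lay just below all 19. Id3 and Sox9, regulators of astrocytes, stood at 12798, 15858 and 5161 and at 4082, 5773 and 1253, and the glutamate transporter Slc1a3 at 12324, 4475 and 3005, against 1905 to 21387, 388 to 110147 and 867 to 65852. Aqp4, the water channel of astrocyte endfeet, stood at 22853, 419 and 7121, against 7.25 to 22309. Gfap, the intermediate filament of mature and reactive astrocytes, lay below the median of the 19 in all 3 cells, at 6.21, 168 and 1.3, against 2.5 to 11046 with a median of 516. Aqp4 and Gfap were chosen after their values were seen.

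The 15 neural progenitor genes compared (of 16) had a median of -0.16. Vim (vimentin) stood at 91258, 53299 and 193144, against 33128 to 395460, Fabp7 at 9055, 981 and 30247, against 2149 to 66589, and the adhesion receptor Cd44 at 1482, 2355 and 4151, against 270 to 31766. Of 7 oligodendrocyte lineage genes (of 12) 2 were lower and none higher, with a median of -1.11. Olig1 and Olig2 stood at 5337, 3.25 and 8010 and at 533, 0 and 349, against 387 to 51305 and 0.64 to 2456.

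Of 14 microglial genes compared (of 17), 12 (85.7%) were at least 4-fold lower in the mean, and the median was -4.16. Only 2 (14.3%) lay below the median of the 19 in each of the 3 cells, against 18.8% of all genes. Relative to the median of the 19, the list median was 0 in each cell. Their sum was 213, 0.561 and 9.8 CPM, against 0.998 to 385 (median 53.8). Cx3cr1 stood at 0.888, 0 and 0 and Mpeg1 at 1.78, 1.08 and 0, against 0 to 217 and 0 to 966, so neither carried the sum of J150_3. Of 8 neuronal genes compared (of 15), 1 was higher and 5 lower in the mean, with a median of -4.36. Only 2 lay below the median of the 19 in each of the 3 cells. Relative to that median, the list medians were 0, 0 and -0.61. Stmn2, a growth cone protein, stood at 7793, 31627 and 4.54, against 0 to 6675, while Tubb3, a defining marker, stood at 0, 0 and 0.648 and Map2 at 1138, 438 and 470, against 0 to 2208 and 201 to 3877. The summed neuronal markers were thus 626, 2076 and 38.1 CPM, against 48.6 to 657, and rested on Stmn2 in J151_5.

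For endothelium 3 of 11 genes were compared, of which 2 (66.7%) were at least 4-fold higher in the mean and 0 lower, with a median of 3.21. Of these genes, 0 lay above the median of the 19 in each of the 3 cells. Relative to that median, the list medians were 0, 3.62 and 0. Slco1a4, a transporter that astrocytes can also express, stood at 13530, 2624 and 633, against 5.47 to 14378. Kdr and Flt1, receptors of vascular growth factor, stood at 0, 26 and 2499 and at 0, 547 and 0, against 0 to 324 and 0 to 167. Of 8 mural and fibroblast genes compared (of 14), 1 was higher and 3 lower, with a median of -0.67. Acta2 and Tagln, contractile genes that cultured astrocytes also make, stood at 25145, 13310 and 53033 and at 7485, 5250 and 10102, against 132 to 103133 and 25.9 to 20014, and the collagen gene Col1a2 at 1.78, 449 and 0.648, against 0 to 9466. The part of these markers in the differences between the cells was not tested.

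Each cell also had genes of its own. In J150_3, Il23r (a cytokine receptor) stood at 2979, 815 times the highest of the other 21 cells, Dcn (decorin) at 313 and 112 times, and 9130011E15Rik (now Armh3) at 905 and 84 times. In J151_5, Spdya, an activator of Cdk2, stood at 1804 and 70.6 times, Wdr76, of the S phase list, at 4575 and 42.1 times, and Tsix, the antisense RNA of the Xist locus, at 1865 and 38 times. In J165_23, Gsta3, a glutathione transferase, stood at 2067 and 259 times, Spdl1 (spindly), which brings dynein to kinetochores, at 3389 and 28.1 times, and Shpk, a sugar kinase, at 246 and 16.2 times. Whether the counting used the strand is not stated, so reads of Tsix cannot be told from those of its partner, and Gsta3 has close paralogs.

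Outside the cell cycle lists the 3 cells were no more alike to each other than to the rest. Over 12401 such genes, Pearson correlations of log2 of the level plus 1 across genes were 0.622 between J150_3 and J151_5, 0.601 between J150_3 and J165_23, and 0.583 between J151_5 and J165_23. The median correlation with the other 19 was 0.628, 0.631 and 0.591 in the same order, and 10, 11 and 7 of the 19 were closer to the cell than was either of the 3. Over the 318 cell cycle genes the correlations between them were 0.612, 0.477 and 0.603, against medians of 0.298, 0.314 and 0.355 with the other 19. Pairs among the other 19 had a median of 0.654 outside the cell cycle lists and 0.587 (0.411 to 0.75) within them, and the correlations between the 3 cells lay within that range. These correlations run across genes within cells that share size factors and differ in depth, genes are not independent replicates, and the second set includes the genes that chose the cells.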

How the data were processed

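RNA was sequenced from 22 single cells typed by their calcium signal under EtOH. Per the labels and methods, each cell's RNA was amplified in 2 rounds of antisense RNA synthesis and made into stranded libraries. The authors trimmed the reads, aligned them with STAR to GRCm38, counted uniquely aligned exonic reads with VERSE, a tool built on HTSeq, and deposited raw counts per gene symbol without normalization. Tool versions and the use of strand are not given in the sources used here.

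Of 23453 symbols, 17479 had a read. Size factors were medians of ratios over 3670 genes read in all cells. The level was the count over the size factor, the ratio compared mean levels, and a mean of 0 was set to 3 reads over the summed size factors. Comparison was limited to genes detected in 5 or more cells. Each group counted as 1 sample since no animal or culture is named, so no test between groups was made. Cells far from others of their type were found by Dixon's ratio. Counts and shares have exact 95% intervals, and ratios with few reads an exact binomial split. Total counts of 2937786 to 22131076 per cell set this precision.

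The members, the limit of 0.5% and all gene lists were chosen with earlier results of these data known. The rule named the 5 markers, the MCM subunits, the 3 members of each list with the highest mean level, up to 3 further members of each cell cycle list with the 3 cells above all 19, 10 genes per direction on no list at a mean level of at least 10 without overlap, and 3 genes per cell with the largest ratio to the highest of the other 21. Positions came from GENCODE vM21 on GRCm38. Alternatives were CPM scaling, TMM factors (edgeR 4.0.16, R 4.3.3), thinning, other filters, a pseudocount of 1, medians over cells, subsets of response types and leaving out each cell. Simulated counts with 200 altered genes and Poisson noise only were used to check the size factors and the ratios of mean levels. Python 3.11.15, NumPy 2.4.6, pandas 2.3.3, SciPy 1.17.1 and matplotlib 3.10.9 were used. Some named genes of the lists are not reported here.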

Additional observations from a re-analysis of the deposited data

Results flagged for a closer look

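Within each response type, a cell was singled out where its gap to the nearest other cell exceeded Dixon's 95% critical value over the range of its type. Chance singles out about 1 in 20 groups, and 136 were examined, which are not independent because lists share genes. The 3 cells were chosen for an extreme S phase share, so their place in that share and in lists that hold S phase genes (all 6 of the MCM helicase, 10 of fork protection, 4 of the clamp list and 1 of the kinetochore list) restates the choice and is given as a description only. J165_23 stood apart among the T-type cells for the S phase share (1.05% of reads), for the clamp and lagging strand genes (4130 CPM, counts per 1e6 reads), fork protection (3574), mitotic cyclins and kinases (2482) and kinetochore genes (4038). J151_5 stood apart among the S-type cells for the MCM helicase (1862 CPM), the clamp genes (4443), fork protection (4486) and neurons (2076, mostly Stmn2). J150_3 stood apart among the S-type cells for the mitotic cyclins and kinases (8522 CPM), microglia (213) and endothelium (949, mostly Slco1a4).

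The other cells singled out were not members. Among M-type cells, J173_25 stood apart for the clamp genes (1586 CPM), kinetochore genes (1126) and neural progenitors (22433). Among NR cells these were J187_6 for polymerases (272) and neurons (657), J186_5 for p53 targets (3487) and J185_4, as the lowest NR cell, for the oligodendrocyte lineage (212). Among T-type cells they were J162_16 for CDK inhibitors (2879) and J163_18 for astrocytes (11547) and endothelium (897), and among S-type cells J156_16 for clustered histones (1722), J154_8 for astrocytes (14278) and J155_9 for mural cells (9437).

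For the neuronal list both S-type members lay above the other S-type cells and J165_23 (38.1 CPM) lay below the other T-type cells. This difference in direction was not tested.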

How the results depend on the processing

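Of 361 values recomputed, 320 stayed within a limit, 38 moved beyond it and 3 changed sign. The limit was 1.5 times for a number of genes, 1 SD over the 3 cells for a list median and the 95% counting interval, which is narrow, for an S phase share. On the log2 scale this SD was wide for S phase (2.3) and G2/M (2.93). It was 0.68 for astrocytes, 0.82 for ribosomal proteins and 0.67 for p53 targets. The G2/M medians of 7.01 with medians over cells and 2.95 without J150_3, against 4.81, thus stayed within the limit. CPM scaling, TMM factors, thinning, a mean level of at least 10 and a pseudocount moved none of the shares of genes or list medians beyond it. The median log2 ratio over all genes was -0.65 under CPM scaling and -0.02 with medians over cells, against -0.52. Without a filter, 20.4% of genes (3573, against 1193) were at least 4-fold higher. With medians over cells the S phase median was 5.96 and the astrocyte median 0.0022, a change of sign.

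Among S-type cells alone, 8.93% of genes had the members above all others and 14.4% below, 15.3% were at least 4-fold higher, and 19.2% and 38.2% lay above and below the median. Among T-type cells alone, 14.1% and 7.99% lay above and below all others and 39.7% and 39.6% above and below the median, and the G2/M and astrocyte medians were 1.74 and -2.24. Fewer cells make these shares easier to reach. Without M-type and NR cells, 1.35% and 0.385% had the members above and below, and the ribosomal median was -0.13, a change of sign. Without J162_16 and J163_18, an alternative added after the data were seen, 0.377% (48 genes) lay below all others. The S phase share was 0.576%, 1.3% and 1.03% in the 3 cells without Mcm3 and Mcm7, and 0.498%, 1.02% and 0.795% without Pcna, where the highest other cell stood at 0.246% and J150_3 no longer passed 0.5%.

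Leaving out each cell in turn gave 0.755% to 2.07% of genes with the members above all others, 0.118% to 0.723% below, 8.39% to 10.9% at least 4-fold higher, 28.6% to 38.6% lower, 10.5% to 22.4% above the median and 18.4% to 32.1% below it. The list medians ran from 2.77 to 3.65 for S phase, 2.95 to 5.10 for G2/M, -1.31 to -0.31 for astrocytes, -0.41 to 0.45 for ribosomal proteins and -2.06 to -0.92 for p53 targets. The ribosomal median of -0.41, a change of sign, and the p53 median of -2.06 were those without J165_23, and the astrocyte median of -1.31 and G2/M median of 2.95 those without J150_3. No paired analysis was possible because the replicate numbers were given in accession order and pair no cells. With 3 cells of unnamed cultures, the depth of a library limits counting error only.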
